A study of Mus musculus with 6 samples.

Results

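The 28 genes described here encode the enzymes of cholesterol synthesis that the list names, from the mevalonate steps to the last sterol ring reactions, with regulators and transporters of cholesterol that respond to or act beside the transcription factor SREBP2 (gene Srebf2). They were chosen by their symbols, with no threshold on a value but with earlier results of these data known. They make up 28 of the 24391 genes in the table of counts and 28 of the 23284 genes in the table of FPKM values (fragment counts scaled for transcript length and sequencing depth). All 28 are listed in both tables, where Msmo1 stands in the FPKM table under its older symbol Sc4mol. A filter on low counts kept 27 of the 28 members, and 12710 genes in all. Hmgcs1 was the member left out, because it is listed at 0 in all 4 libraries of the count table.

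The study isolated tumour-associated macrophages from colorectal tumours in mice of the BALB/C strain, in wild-type (WT) animals and in animals of the CCL5-/- genotype, which removes the chemokine CCL5 that attracts T cells and monocytes. CD11bhi F4/80low cells gave 2 libraries per genotype with read counts, and CD11blow F4/80hi cells gave 1 library per label with FPKM values only. CD11b and F4/80 are surface proteins of myeloid cells and macrophages. The tumour model, the age of the mice, the number of mice behind a library and any pooling are not given in the sources used here, so a p-value reflects how far libraries of a genotype differ among themselves, which can be technical. In bulk RNA of this kind, fewer cells of a type and less RNA per cell cannot be told apart.

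Cholesterol is built from acetyl-CoA through mevalonate, isoprenoid diphosphates, squalene and a series of changes to the lanosterol ring. When membrane sterol is low, the escort protein Scap carries SREBP2 from the endoplasmic reticulum to the Golgi, where proteases release its transcription factor domain, which binds sterol regulatory elements beside CCAAT boxes in the promoters of the synthesis genes. When sterol is plentiful, Insig1 and Insig2 hold Scap back, and macrophages store excess cholesterol as esters or export it.

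Promoter sequence in RefSeq (GRCm38.p6) was matched for 23 of the 28 members, each running from 250 bases before to 50 bases after the start of the gene. The sterol regulatory element was searched as TCACNCCA, on both strands, and was found for Hmgcs1, Msmo1 and Srebf2, which is 13% of the matched members against 4.97% of the 27018 genes in the same table. The CCAAT box, searched as CCAAT on both strands, was found for 21 of the 23 members (91.3%) against 41.1% of all genes. The GC box GGGCGG was likewise found for 21 members (91.3%), against 38.2% of genes, and the E-box CACGTG for 5 members (21.7%), against 8.09%. The end of the sterol regulatory element can share letters with a CCAAT box. A match is a description of the letters, and the lack of one says only that these letters are not in this window. Each window that follows holds 70 of the bases before the start, in the direction of the gene, with the sterol regulatory element and the CCAAT box (ATTGG where it lies on the opposite strand) in capitals. Hmgcs1 and Srebf2 are shown for the sterol regulatory element. Nsdhl, Hsd17b7 and Lss are shown because their fitted log2 changes between genotypes are the highest of the members tested, and Ggps1 because it carries the same box and its fitted change lies below 0.
Hmgcs1, chr13:119690188-119690257, plus strand: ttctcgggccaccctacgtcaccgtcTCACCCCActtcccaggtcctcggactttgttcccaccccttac
Srebf2, chr15:82147081-82147150, plus strand: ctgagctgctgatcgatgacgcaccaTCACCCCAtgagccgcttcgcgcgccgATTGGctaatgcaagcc
Nsdhl, chrX:72918386-72918455, plus strand: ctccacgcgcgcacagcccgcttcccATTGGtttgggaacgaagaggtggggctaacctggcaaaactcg
Hsd17b7, chr1:169969327-169969396, minus strand: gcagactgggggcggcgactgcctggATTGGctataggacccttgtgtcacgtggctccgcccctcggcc
Lss, chr10:76531517-76531586, plus strand: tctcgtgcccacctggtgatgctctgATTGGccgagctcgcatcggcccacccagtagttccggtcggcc
Ggps1, chr13:14063646-14063715, minus strand: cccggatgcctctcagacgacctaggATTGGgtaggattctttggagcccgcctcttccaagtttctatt

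The 4 F4/80low libraries held 9280635 to 22411342 counts. Rn45s, the ribosomal RNA precursor, took 58.44% and 50.03% of the counts in replicate 1 of WT and CCL5-/- but 0.8439% and 1.382% in replicate 2, so 3857011 to 22222208 counts remained without it. The replicate 1 libraries therefore carry the shallower measurement of each member, and changes are given within each same-numbered pair as well as from the fit. Ccl5 itself had 43.8 and 130.7 CPM (counts scaled to library size with edgeR's TMM factors, as in all CPM values here) in WT replicates 1 and 2 and 4.068 and 3.011 CPM in CCL5-/-, as the F4/80low labels say. The F4/80hi libraries went against their labels: Ccl5 had 15.74 FPKM in the library labelled WT and 145 FPKM in the one labelled CCL5-/-, and their titles give the opposite genotype to their fields.

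Between genotypes in F4/80low cells, 16 of the 19 synthesis enzymes tested were higher in CCL5-/- within both same-numbered pairs, and their summed level was 1.56-fold higher in the replicate 1 pair (343.2 against 534.7 CPM) and 1.65-fold higher in the replicate 2 pair (469.3 against 776.1 CPM). None passed the test in the fit with genotype alone. In edgeR's quasi-likelihood fit with Benjamini-Hochberg adjustment, 0 of 27 members and 0 of 12710 genes (0%) had an adjusted p under 0.05, and the adjusted p was 1 for every member tested. Ccl5 itself, at a log2 change of -4.64 (unadjusted p = 0.000762 in the same fit), was not called either. The lack of calls in that fit therefore does not show that the members were unchanged. At an unadjusted p under 0.05, that fit held 2 members higher in CCL5-/- (Nsdhl and Hsd17b7), against 11 genes higher in all (0.0865%), and no member lower. With the replicate number as a term, edgeR called 10 genes (0.0787%) and 0 members, and limma-voom called 31 genes (0.244%) and 1 member, Nsdhl. In the edgeR fit with the replicate term, 14 members were higher in CCL5-/- at an unadjusted p under 0.05, against 1.85% of all genes, and no member was lower. DESeq2, with or without the term, and limma-voom without the term called 0 members.

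Of the 27 members tested, 19 (70.4%) were higher in CCL5-/- in both pairs, against 24.8% of all genes. At least 1.5-fold in both pairs were 9 members, against 1.22% of all genes: Idi1, Fdps, Fdft1, Sqle, Lss, Cyp51, Msmo1, Nsdhl and Hsd17b7, all of them synthesis enzymes. Both CCL5-/- libraries lay above both WT libraries for 16 members, against 8.36% of all genes. The median fitted log2 change of the 27 members was 0.54, beside -0.01 over all genes tested. Within the pairs it was 0.55 for replicate 1 and 0.57 for replicate 2, beside 0.00 and -0.02. Only Npc1 and Npc2 (7.41% of the 27) were lower in CCL5-/- in both pairs, and the share of all genes that were lower is not given here. Each value in the replicate 1 pair rests on fewer counts than its partner, and the direction of the list was not tested as a set.

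**Figure D1:**
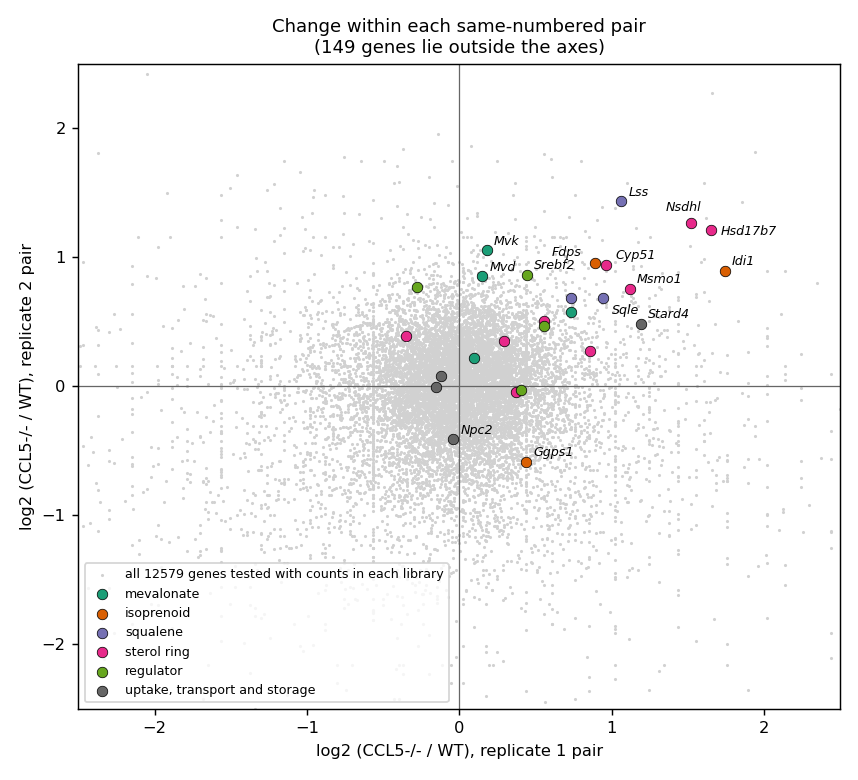
log2 ratio of CCL5-/- over WT in the replicate 1 pair (x axis) and the replicate 2 pair (y axis), from TMM-scaled CPM. Coloured points are the 27 members tested by step and grey points are genes with counts in each library. The upper right part, higher in CCL5-/- in both pairs, holds 19 members.

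The mevalonate steps (5 members listed, 4 tested) had a median log2 change of 0.59. Acat2, the cytosolic thiolase that joins acetyl-CoA units at the entry to the pathway, had 10.48 and 13.74 CPM in WT replicates 1 and 2 and 17.44 and 20.46 CPM in CCL5-/-. Both CCL5-/- libraries lay above both WT libraries, and the fitted log2 change was 0.64 (SE 0.365). The other members of this step, the kinases Mvk and Pmvk and the decarboxylase Mvd, ranged from 8.589 to 25.82 CPM over the 4 libraries. Mvk (0.18 and 1.06 in the replicate 1 and 2 pairs, log2) and Mvd (0.15 and 0.85) were higher mainly in the replicate 2 pair, and Pmvk had 0.10 and 0.22. Hmgcs1, the synthase that makes HMG-CoA from acetoacetyl-CoA, had no count in any F4/80low library, yet 22.03 and 8.343 FPKM in the F4/80hi libraries labelled WT and CCL5-/-. Of 6861 genes with at least 5 FPKM in both F4/80hi libraries, 49 (0.714%) are likewise listed at 0 counts in all F4/80low libraries, so no change in F4/80low cells can be given for it.

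The isoprenoid steps had a median log2 change of 0.93 over 3 members, with opposite directions between members. Idi1, the isopentenyl diphosphate isomerase, had 2.920 and 8.152 CPM in WT and 9.764 and 15.17 CPM in CCL5-/-. Its groups did not overlap, WT replicate 1 was the low library, and the fitted log2 change was 1.14 (SE 0.595). Leaving out WT replicate 2 gave 2.095 and leaving out WT replicate 1 0.64, with 1.46 without CCL5-/- replicate 1 and 0.78 without CCL5-/- replicate 2. Fdps, which makes farnesyl diphosphate for sterols and for protein prenylation, had 41.92 and 67.78 CPM in WT and 77.53 and 131.5 CPM in CCL5-/-. Each CCL5-/- library lay above each WT library, CCL5-/- replicate 2 being the highest, with a fitted log2 change of 0.93 (SE 0.472) that was 0.50 without CCL5-/- replicate 2 and 1.32 without WT replicate 2. In limma-voom with the replicate term its adjusted p was 0.086. Ggps1, whose product geranylgeranyl diphosphate leaves the sterol path for prenylation, had 7.215 and 16.40 CPM in WT and 9.764 and 10.94 CPM in CCL5-/-. Both CCL5-/- values lay between the WT values, and the pairs gave 0.44 and -0.58 (log2).

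The squalene steps were higher in CCL5-/- for 3 of 3 members in both pairs, by at least 1.5-fold, with a median log2 change of 0.81. Fdft1, the squalene synthase that commits farnesyl diphosphate to sterols, had 15.63 and 20.58 CPM in WT and 25.92 and 33.01 CPM in CCL5-/-. Sqle, the squalene epoxidase, had 32.47 and 37.64 CPM in WT and 62.30 and 60.45 CPM in CCL5-/-. For both genes the CCL5-/- libraries lay above the WT libraries, and Sqle varied little within each genotype (means 35.1 ± 3.66 and 61.4 ± 1.31 CPM, SD, n = 2). The fitted log2 changes were 0.70 (SE 0.372) for Fdft1 and 0.81 (SE 0.345) for Sqle. Lss, which closes squalene epoxide into lanosterol, had 8.074 and 4.208 CPM in WT and 16.85 and 11.38 CPM in CCL5-/-. Its groups did not overlap although replicate 2 was the lower library in each genotype, and the fitted log2 change was 1.22 (SE 0.496). For Lss the limma-voom fit with the replicate term gave an adjusted p of 0.058, which was 0.0491 without robust moderation, and the change was 0.80 without WT replicate 2.

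The sterol ring steps (9 members) had a median log2 change of 0.54, and the 3 enzymes that act together to remove methyl groups from the ring, Msmo1, Nsdhl and Hsd17b7, were among those at least 1.5-fold higher in both pairs. Nsdhl, the dehydrogenase of that group, had 7.043 and 9.632 CPM in WT and 20.23 and 23.14 CPM in CCL5-/-. The groups were well apart (means 8.34 ± 1.83 and 21.7 ± 2.06 CPM, SD, n = 2), and the fitted log2 change was 1.37 (SE 0.375), or 1.52 and 1.26 within the replicate 1 and 2 pairs. Nsdhl was the member that rose past the threshold in limma-voom with the replicate term (adjusted p = 0.0255). The same term in edgeR gave an adjusted p of 0.0569.

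Hsd17b7, the ketone reductase of the group, had 2.405 and 2.958 CPM in WT and 7.555 and 6.867 CPM in CCL5-/-. Its groups did not overlap and its fitted log2 change of 1.41 (SE 0.438) was the highest of the members. Msmo1, the oxygenase of the group, had 28.17 and 82.41 CPM in WT and 61.14 and 139.1 CPM in CCL5-/-. WT replicate 2 lay above CCL5-/- replicate 1, so the genotypes overlapped although both pairs were higher in CCL5-/- (1.12 and 0.76, log2). Cyp51, the lanosterol demethylase, had 38.31 and 72.02 CPM in WT and 74.62 and 138.4 CPM in CCL5-/-. CCL5-/- replicate 1 lay only just above WT replicate 2, and the fitted log2 change of 0.95 (SE 0.523) was 0.43 without CCL5-/- replicate 2, 0.59 without WT replicate 1 and 1.48 without WT replicate 2.

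The other 5 sterol ring members had fitted log2 changes from -0.04 to 0.54. Ebp, Sc5d and Dhcr7, the isomerase, desaturase and reductase of the last ring reactions, were higher in CCL5-/- in both pairs, with fitted log2 changes of 0.33, 0.51 and 0.54. The sterol reductase Tm7sf2 (0.11) and Lbr (-0.04), a reductase that is also a receptor for lamin in the nuclear envelope, were not higher in both pairs. Lbr had 77.47 and 42.47 CPM in WT and 60.68 and 55.75 CPM in CCL5-/-, so both CCL5-/- values lay between the WT values.

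**Figure D2:**
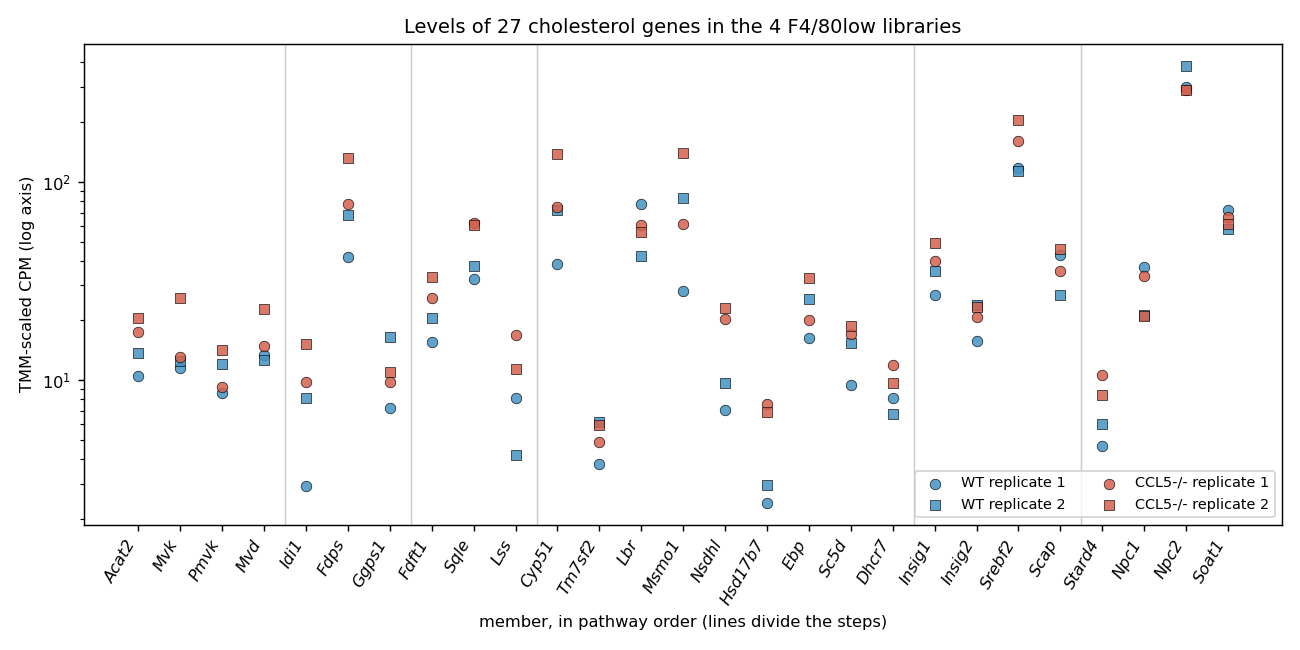
TMM-scaled CPM (log axis) of the 27 members tested in pathway order in the 4 F4/80low libraries, blue for WT and red for CCL5-/-, circles for replicate 1 and squares for replicate 2. Nsdhl and Hsd17b7 have both red points well above both blue ones, and for Msmo1 and Cyp51 the squares lie above the circles of the same colour.

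Among the 4 regulators the median log2 change was 0.36. Srebf2, which encodes SREBP2 and is a target of its own product, had 117.8 and 113.1 CPM in WT and 160.1 and 205.9 CPM in CCL5-/-. Both CCL5-/- libraries were above both WT libraries, and the fitted log2 change was 0.66 (SE 0.391). Insig1, an anchor that holds Scap back when sterol is plentiful, had 26.97 and 35.63 CPM in WT and 39.64 and 49.25 CPM in CCL5-/-. The groups did not overlap, and the fitted log2 change of 0.50 (SE 0.369) was 0.34 without CCL5-/- replicate 2 or without WT replicate 1.

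Insig2, a second anchor of Scap, had 15.80 and 23.93 CPM in WT and 20.92 and 23.43 CPM in CCL5-/-. Scap, the escort itself, had 42.95 and 26.76 CPM in WT and 35.45 and 45.68 CPM in CCL5-/-. For both genes the genotypes overlapped and the pairs went opposite ways, at 0.41 and -0.03 (log2) for Insig2 and -0.28 and 0.77 for Scap.

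Of the 4 uptake, transport and storage members, only Stard4 was higher in CCL5-/- in both pairs, and the median log2 change was -0.06. Stard4, a carrier of cholesterol between membranes, had 4.638 and 5.983 CPM in WT and 10.58 and 8.373 CPM in CCL5-/-. Its groups did not overlap, and the fitted log2 change was 0.82 (SE 0.413). Npc2, a cholesterol-binding protein of the lysosome, had 299.2 and 384.7 CPM in WT and 290.7 and 289.5 CPM in CCL5-/-, which made it the member whose CCL5-/- libraries were both below both WT libraries (log2 change -0.24, SE 0.430). The gap between WT replicate 1 and the CCL5-/- libraries was small beside the spread within WT (SD 60.4 CPM, n = 2).

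Npc1, the lysosomal membrane protein that takes cholesterol from Npc2, had 37.11 and 21.24 CPM in WT and 33.36 and 21.15 CPM in CCL5-/-. It separated by replicate number rather than by genotype. Soat1, which esterifies cholesterol for storage, had 72.15 and 58.09 CPM in WT and 66.49 and 61.33 CPM in CCL5-/-, with both CCL5-/- values between the WT values.

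**Figure D3:**
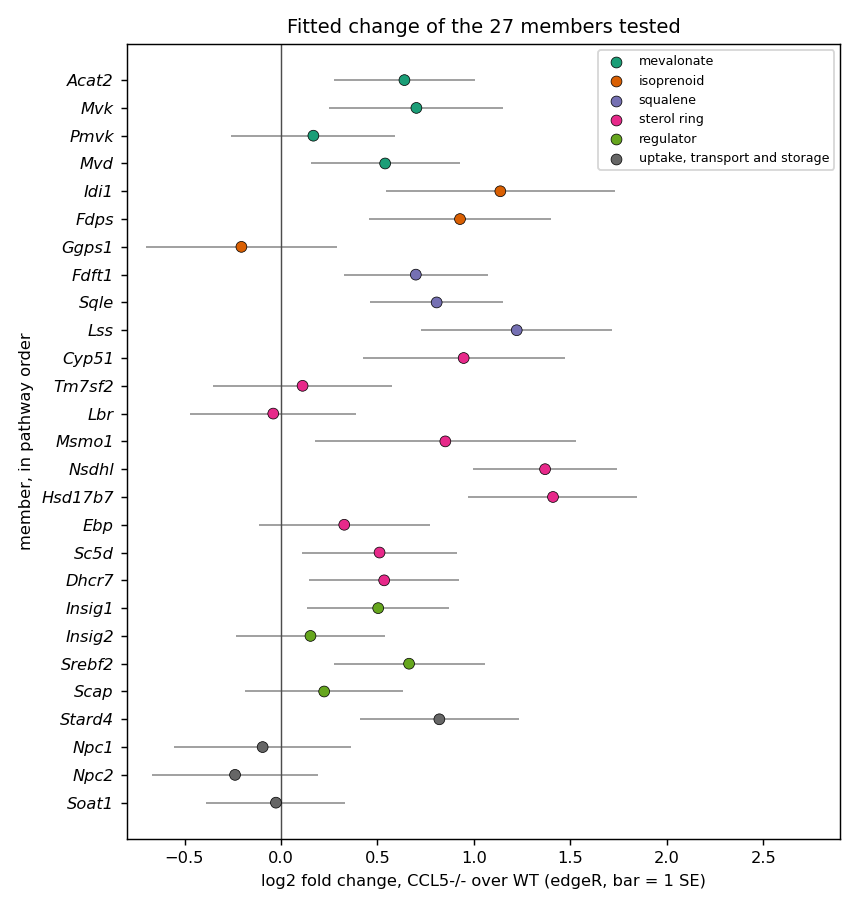
Fitted log2 fold change of CCL5-/- over WT in F4/80low cells for the 27 members tested, from the edgeR fit with genotype alone, with bars of 1 SE, coloured by step. The points run from -0.24 (Npc2) to 1.41 (Hsd17b7).

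Per kilobase of annotated exon, members differed widely in level over the 4 libraries. Npc2 averaged 58.1 CPM per kilobase, Srebf2 20.8, Fdps 18.9 and Msmo1 12.7, whereas Nsdhl averaged 5.26, Idi1 2.57, Hsd17b7 0.969 and Lss 0.939. Lss and Hsd17b7, among the highest fitted changes, thus stood low on this scale. In the replicate 1 libraries they rested on 47 and 145 counts (Lss) and 14 and 65 counts (Hsd17b7) in WT and CCL5-/-. The deposited FPKM values ordered some members differently. Lss had 6.41 and 3.368 FPKM in the libraries labelled WT and CCL5-/-, near Mvd (7.218 and 5.46), which averaged 8.591 CPM per kilobase. Idi1 had 24.21 and 5.837 FPKM, not below Nsdhl (14.49 and 5.787). Hsd17b7 was low on both scales (3.08 and 0.8607 FPKM). The cause of the difference between the scales was not tested.

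Some members also differed between the libraries numbered 1 and 2, at shares near or below those of all genes. In edgeR's fit with genotype and replicate, 5 of 27 members (18.5%) were higher in replicate 2 (adjusted p under 0.05), against 13.9% of all genes. They were Msmo1 (log2 1.36, adjusted p = 0.000458), Cyp51 (0.90, adjusted p = 0.00621), Idi1 (0.97, adjusted p = 0.0269), Fdps (0.73, adjusted p = 0.0199) and Ebp (0.69, adjusted p = 0.0269). Npc1 was the member lower in replicate 2 (-0.73, adjusted p = 0.0180), 3.7% of the 27 against 18% of all genes. The median over the 27 members was 0.31, beside 0.00 over all genes. In the same fit Msmo1 had a change between genotypes of 0.93, beside its replicate difference of 1.36. What the replicate number stands for is not given in the labels, and the ribosomal RNA share moves with it.

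Genes beside the pathway were read from fixed lists, and none of them passed the test in the fit with genotype alone. Like the members, the lists were chosen with earlier results of these data known, so they are not an independent check. Of 10 further genes known to respond to sterol, 9 were higher in CCL5-/- in both pairs, against 24.8% of all genes, and 0 were lower. Both CCL5-/- libraries lay above both WT libraries for 7 of them, against 8.36% of all genes. The median log2 change of this list was 0.43. Aacs, a ligase that feeds acetoacetate to lipid synthesis, had 23.88 and 36.65 CPM in WT and 42.08 and 70.80 CPM in CCL5-/- (log2 0.90). Tmem97, which binds sterols and Npc1, had 12.71 and 14 CPM in WT and 20.57 and 24.27 CPM in CCL5-/- (0.75). Lpin1, a phosphatidate phosphatase, had a log2 change of 0.47. For Aacs and Tmem97 both CCL5-/- libraries were above both WT libraries.

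Of 14 genes of SREBP processing and sterol sensing, 4 were higher in both pairs, beside 24.8% of all genes, 1 was lower, and the median log2 change was 0.11. Srebf1, the gene of the related factor SREBP1, had 89.67 and 71.66 CPM in WT and 86.71 and 117.8 CPM in CCL5-/-, which overlapped. Rnf139 had 0.31 (log2) and Nr1h3, the oxysterol receptor LXR alpha, -0.61 with opposite directions in the pairs. In the isoprenoid branch that leaves the pathway for prenylation and quinones (11 genes), 4 were higher in both pairs, again beside 24.8% of all genes. In that branch 1 gene was lower, and the median was 0.17. Icmt had a log2 change of 0.32 and was higher in both pairs. Fntb (0.35) and Rabggta (0.22) had opposite directions in the pairs.

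Among 6 electron donors and partners of sterol enzymes, 2 were higher in both pairs, beside 24.8% of all genes, and none lower, with a median of 0.20. The 2 were Cyb5b (0.35) and Erg28 (0.51, listed as 0610007P14Rik), which tethers the enzymes that remove the ring's methyl groups. Cyb5r3 had 0.26 with opposite directions in the pairs. Of 14 genes of sterol storage, hydroxylation and intracellular transport, 13 were tested, 1 was higher in both pairs (Osbpl1a, 0.41) and 9 were lower, with a median of -0.20. The share of all genes lower in both pairs is not given for this list or for the marker lists below. Cyp27a1, the mitochondrial sterol hydroxylase, had 3.951 and 3.649 CPM in WT and 1.976 and 2.093 CPM in CCL5-/- (-0.89), and Stard3 had -0.31. For Cyp27a1 both CCL5-/- libraries were below both WT libraries.

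Marker lists of the macrophage and of other cell types were summed in the same libraries, in the order WT replicates 1 and 2 then CCL5-/- replicates 1 and 2. The 12 macrophage genes, which define the labelled cell type, summed to 3855, 7714, 5198 and 4772 CPM, and 0 of 12 were at 0 in any library. Neutrophil genes summed to 3786, 600.4, 776.4 and 346.9 CPM, and 10 of the 11 tested were lower in CCL5-/- in both pairs. The share of all genes lower in both pairs is not given here. Camp was the gene of that list that fell past the threshold in edgeR with the replicate term. The neutrophil sum was thus lower in CCL5-/- within both pairs and lower in replicate 2 of each genotype, opposite to the synthesis enzymes. The part of this list in their change was not tested.

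Hepatocyte genes summed to 101.2, 73.3, 253.6 and 62.36 CPM. Of the 14, 9, 8, 0 and 8 were at 0 in the 4 libraries, and Alb was at 0, 0.03287, 75.90 and 0 CPM. The list was thus high in CCL5-/- replicate 1 alone. The synthesis enzymes were 1.56-fold higher in CCL5-/- in the replicate 1 pair and 1.65-fold higher in the replicate 2 pair. The part of the hepatocyte list in their change was not tested.

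Proliferation genes summed to 901, 1224, 1182 and 1436 CPM. Of the 15, 12 were higher in CCL5-/- in both pairs, against 24.8% of all genes, and 0 were lower. The list moved in the same direction as the synthesis enzymes in both pairs and between the replicates, and its part in their change was not tested. Fibroblast genes summed to 916.1, 915.6, 710.9 and 1066 CPM (1 of 8 higher in both pairs and 2 lower), and epithelial or tumour genes to 33.84, 18.61, 28.48 and 31.84 CPM (2 of 5 tested higher and 1 lower). T and NK cell genes summed to 64.93, 271.4, 105.8 and 102.4 CPM (0 of 9 higher and 1 lower), and dendritic cell genes to 76.1, 68.01, 49.17 and 56.59 CPM (1 of 6 tested higher and 5 lower). With the replicate term in edgeR, Dcn of the fibroblast list fell past the threshold. The parts of these lists in the members' changes were not tested.

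**Figure D4:**
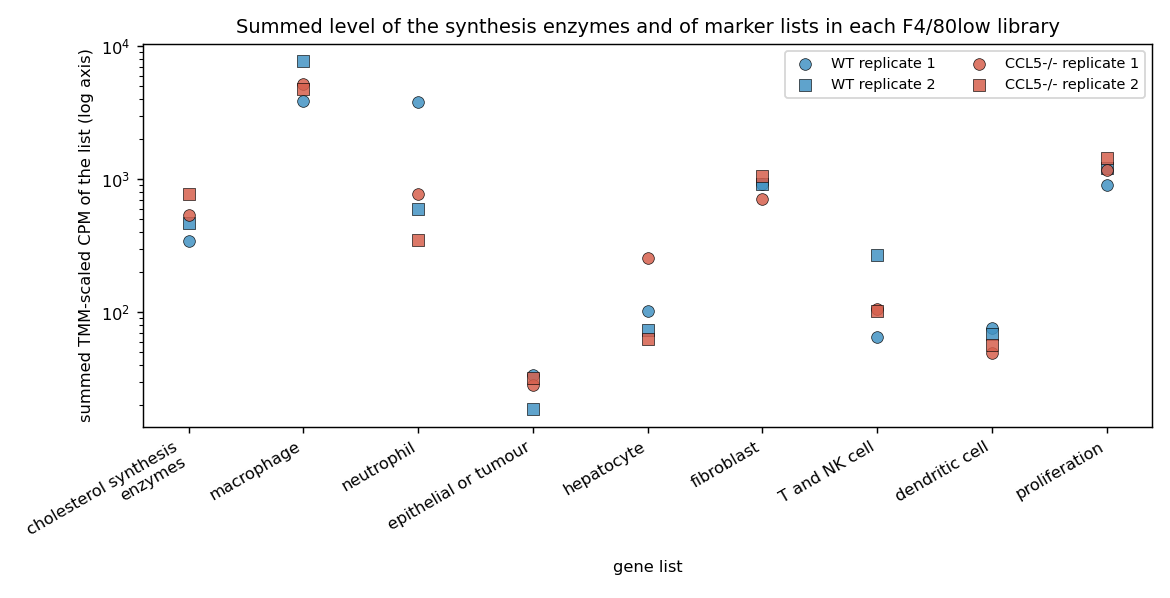
Summed TMM-scaled CPM (log axis) of the 19 synthesis enzymes tested and of 8 marker lists in each F4/80low library, blue for WT and red for CCL5-/-, circles for replicate 1 and squares for replicate 2. The enzymes are higher in red within each symbol, the neutrophil list is lower in red within each symbol, and the hepatocyte list is high in CCL5-/- replicate 1.

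The F4/80hi libraries gave 1 value per member and label, without a replicate and without a test, and the depth behind them is unknown. By the fields, 25 of the 28 members were lower in the library labelled CCL5-/-, and Lbr (27.19 FPKM in the library labelled WT and 33.86 in the other), Scap (8.913 and 9.812) and Npc1 (7.947 and 9.861) were higher. Idi1 had 24.21 FPKM (deposited confidence bounds 9.605 to 38.81) in the library labelled WT and 5.837 FPKM (1.666 to 10.01) in the one labelled CCL5-/-. Nsdhl had 14.49 and 5.787 FPKM, Hsd17b7 3.08 and 0.8607, Sqle 31 and 13.52, and Msmo1 62.1 and 27.35, in the same order.

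By the titles, which swap the genotypes and which Ccl5 follows, 25 of the 28 members were higher in the library titled ko. The median was 0.54 on the log2(FPKM + 1) scale, beside 0.02 over 11670 genes, and 13 of 28 members were at least 1.5-fold higher, against 5.36% of all genes. Srebf2 had 35.53 FPKM in the library titled ko and 25.78 in the one titled wt, Fdps had 89.44 and 47.25, and Npc2 had 121 and 116.8. Npc2, unlike Fdps, was thus nearly equal in both.

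These values were not independent of the F4/80low data. Over 11657 genes with a value above 0 in each library, the log2 FPKM ratio of the library titled ko over the one titled wt, here without a pseudocount, had a Pearson r of 0.828 with the F4/80low replicate 1 pair and 0.098 with the replicate 2 pair, as a description across genes, which are not replicates. After each ratio was centred on its median over these genes, the median absolute difference was 0.116 from the replicate 1 pair and 0.380 from the replicate 2 pair. Over 6626 genes with 20 to 400 reads in the replicate 1 pair, the median chi-square of the difference was 0.333, within sampling noise, whereas it was 6.441 over 3380 such genes of the replicate 2 pair. Among 26 members matched by symbol, on the same centred scale without a pseudocount, the median absolute difference was 0.116 from the replicate 1 pair and 0.384 from the replicate 2 pair, with Idi1 the farthest in each (0.297 and 1.115). The F4/80hi pair stood no farther from the F4/80low replicate 1 pair than sampling noise allows, and both were counted as 1 pair, so it adds no replicate to the changes above. No test between F4/80hi and F4/80low cells was run for the members.

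**Figure D5:**
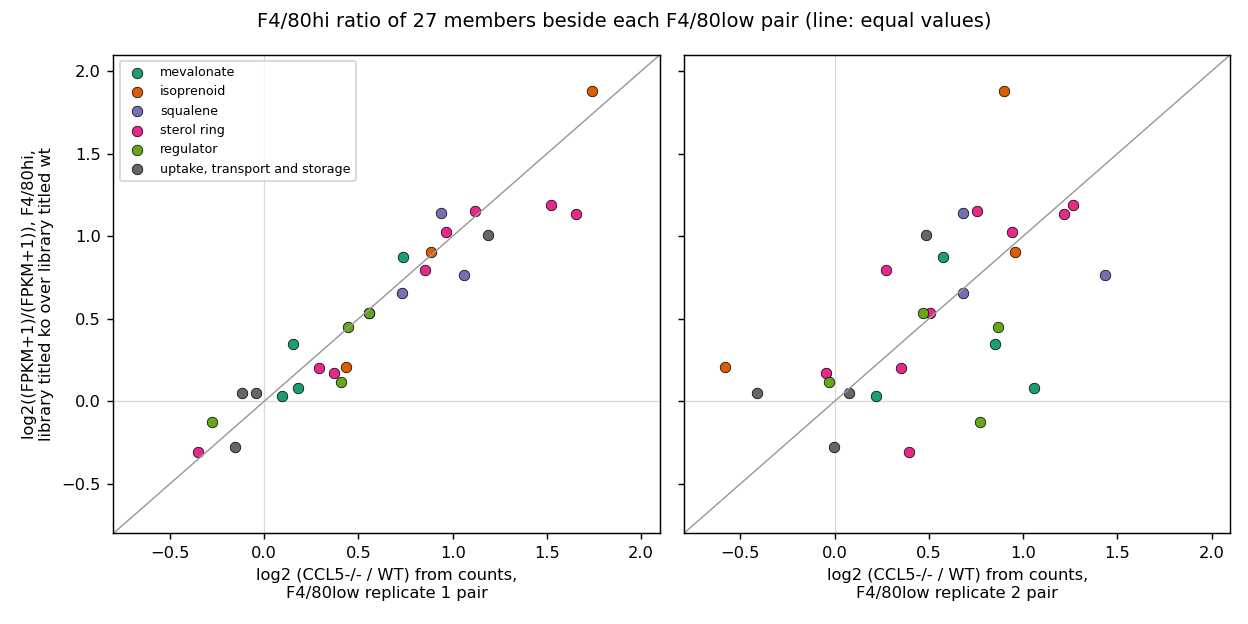
log2((FPKM + 1)/(FPKM + 1)) of the F4/80hi library titled ko over the one titled wt (y axis) against log2 CCL5-/- over WT from counts in the F4/80low replicate 1 pair (left) and replicate 2 pair (right), for 27 members coloured by step, with a line of equal values. Points follow the line on the left and scatter around it on the right.

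The authors' deposited table of their own comparison in F4/80low cells listed log2 changes of 0.71 for Nsdhl, 0.59 for Hsd17b7 and 0.55 for Lss, each with an adjusted p of 0.9999. These lie below the values fitted here for the same genes (1.37, 1.41 and 1.22), with the same direction. DESeq2 without the replicate term, run here on the same counts, gave 1.37, 1.41 and 1.23. The deposited standard errors were 0.281, 0.277 and 0.279. The reason for the lower deposited values was not tested, so they are not a second measure of the size of the change.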

How the data were processed

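RNA was sequenced from sorted tumour-associated macrophages. The authors deposited raw counts per gene, counts normalised by size factors (a signal, used only to check the columns), log2 fold changes with p-values, and, for the F4/80hi libraries, FPKM with confidence bounds. Per the submitters' processing notes the tools were Cufflinks 2.2.1, TopHat2 2.1.1, STAR, HTSeq, DESeq2, cutadapt, FastQC and bcl2fastq 2.17.1.14, and the builds named include mm9 and mm10. The sources used here do not tie them to a table or say whether counting used strand, so overlapping genes could not be told apart.

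Counts were analysed in R 4.3.3 with edgeR 4.0.16 (filterByExpr, TMM, robust glmQLFit, two-sided, Benjamini-Hochberg over 12710 genes, threshold 0.05), on WT and CCL5-/- F4/80low libraries, 2 each, without the replicate number. Alternatives used the replicate term, DESeq2 1.42.0, limma-voom (limma 3.58.1), other scaling and filters, and each library left out. Scripts were tested on simulated counts. FPKM ratios used a pseudocount of 1 and genes with at least 1 FPKM in either library. CPM means carry the SD over n = 2. A zero count allows up to 3 counts, for counting error only.

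Values in every library are given for the 10 members with the smallest p in the fit without the replicate number, and for Srebf2, Scap, Insig1, Insig2, Npc1, Npc2 and Soat1 whatever their values, as a rule, with up to 3 genes per related list by the same p. Values in every library for Ggps1, Lbr and Msmo1 were added after they were seen. The members and lists were chosen with earlier results of these data known. All 28 members were placed on GRCm38 annotation (GENCODE M21) by symbol.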

Additional observations from a re-analysis of the deposited data

Results flagged for a closer look

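For 13 of the 17 members whose values are given by the rule in every library, the F4/80hi library labelled CCL5-/- stood on the opposite side of the one labelled WT from both F4/80low pairs, a difference that was not tested. The log2((FPKM + 1)/(FPKM + 1)) values by label were -1.88 for Idi1, -1.19 for Nsdhl, -1.14 for Sqle, -1.13 for Hsd17b7, -1.03 for Cyp51, -1.01 for Stard4, -0.91 for Fdps, -0.88 for Acat2, -0.76 for Lss, -0.65 for Fdft1, -0.53 for Insig1, -0.45 for Srebf2 and 0.28 for Npc1. Over all members with 1 direction in both F4/80low pairs, 20 of 21 were opposite by label. By the titles, each of these signs turns over. Ccl5 follows the titles, and the F4/80hi pair stood within sampling noise of the F4/80low replicate 1 pair. The opposite signs by label are therefore not a separate result about the members, and the share of all genes with opposite signs is not given here.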

How the results depend on the processing

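The fit with genotype alone called 0 genes. The edgeR fit with the replicate block called 10, DESeq2 1 without and 25 with the replicate block, limma-voom with the replicate block 31, or 47 without robust moderation, and leaving out 1 library gave 0 to 4 genes. Members called were 1 in limma-voom with the replicate block and 2 (Nsdhl and Lss) without robust moderation. With 2 pairs, equal numbers do not show that libraries share an animal or batch. The median log2 change of the members, 0.54, was 0.620 in limma-voom with the replicate block (also without robust moderation), 0.569 without the filter, 0.554 and 0.574 within the replicate 1 and 2 pairs, and 0.336 (without CCL5-/- replicate 2) to 0.721 (without WT replicate 2) with 1 library left out. The counts of 19, 9 and 16 members (higher in both pairs, 1.5-fold in both, without overlap) stayed equal under other scaling. The settings were edgeR's RLE (relative log expression) method and removal of Rn45s, both chosen after seeing the data. The replicate 2 pair alone held 22 higher and 13 at 1.5-fold. Reversed were Scap (-0.277 in the replicate 1 pair, -0.081 to 0.619 with 1 library left out), Insig2 (-0.031 in the replicate 2 pair, -0.092 to 0.489), Npc1 (-0.449 to 0.367) and Soat1 (0.078 in the replicate 2 pair, -0.176 to 0.152). The cause was not tested. The F4/80hi median by label was -0.536, was -0.598 with a pseudocount of 0.1 FPKM, and was 0.536 by title. Of the other values of named members, 214 with an adjusted p kept direction and side of the threshold. Values from 1 pair have no test, and 29 of them kept direction and lay within 1 SD (over the 2 pairs) of the fitted change. Idi1 (1.741) and Cyp51 (0.962) in the replicate 1 pair kept direction but lay farther off.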
